A study of Mus musculus with 4 samples.

Results

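The alternative and terminal complement components are represented here by 10 genes, chosen by name: C3, Cfb, Cfp, Hc, C6, C7, C8a, C8b, C8g and C9. Factor D was not among them. The deposited arrays carry 14 probes for these genes (1 probe for 6 genes and 2 probes for 4), out of 55681 non-control probes in all. A gene entered the tests, a fit over 25293 genes, if a probe was well above background on both MN arrays or on both control arrays. Of the 10 genes 8 met this, and C8b and C9 did not. In MN kidneys no gene of the group passed the test. C3 and C8g had lower values in MN on both slides and by both of their probes. Cfb and Cfp differed by less than the gap between the control arrays, and C7 had a low value on a single MN array. Lower values in MN on both slides were common, at 40.1% of all genes in the fit.

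Kidney RNA came from female BALB/C mice that were 6 weeks old at the start. The MN mice (membranous nephropathy, a disease in which immune complexes form beneath the podocytes of the glomerulus) received cationic bovine serum albumin (cBSA) at 13 mg/kg into a vein, 3 times a week over 6 weeks. The control mice were given vehicle on the same schedule, named PBS in one label and saline in another. Mice of both groups had been immunized 2 weeks before that with 0.2 mg of cBSA in complete Freund's adjuvant, so the comparison is of the intravenous antigen in mice that were all primed. Each group had 2 samples with 1 Agilent array each (1 colour, Cy3). The labels do not say whether the samples were separate animals or pools, so p-values measure only the spread between these samples, which may be technical. Slide 1 carried replicate 1 of both groups and slide 2 carried replicate 2.

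Complement is a cascade of plasma proteins, most of them made in the liver, with known synthesis in kidney tubules, macrophages and other cells. In the alternative pathway C3b binds factor B, factor D cleaves it, and properdin stabilizes the resulting C3 convertase. Further C3b turns this enzyme into a C5 convertase, and C5b then gathers C6, C7, C8 and several copies of C9 into the membrane attack complex. In rat models of membranous nephropathy this complex injures podocytes at the sites of immune deposits.

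All 4 arrays had detectable kidney transcripts and moderate differences in sensitivity. The share of spots well above background was 64.0% and 63.1% on the MN arrays, against 65.9% and 79.5% on the control arrays, and 0 spots were saturated. The lowest processed signal that was well above background was 25.8 and 44.1 on MN arrays 1 and 2, against 22.0 and 12.4 on control arrays 1 and 2. A dim probe could therefore be detected most easily on control array 2. The 8 kidney markers Slc34a1, Lrp2, Cubn, Umod, Slc12a1, Slc12a3, Aqp2 and Nphs1 were detected well above background on each of the 4 arrays. With 2 arrays a group, precision is limited throughout.

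The probes are 60 bases long and were placed on mm9 by the file headers. Those shown are 1 or both probes of C3, factor B, properdin, C7, C8a and C8g, all well above background on at least 3 arrays. The brighter C8a and C8g probes, which entered the fit, are not shown. The C3 pair shows that separate stretches near the 3′ end of one transcript were read, the first of them across the stop codon, which is in capitals and is followed by 20 bases. No other probe has a marked stretch. The sequences are from the scanner files, 5′ to 3′ on the transcript strand.
C3 A_51_P110301: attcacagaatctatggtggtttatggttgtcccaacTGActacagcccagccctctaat
C3 A_55_P2038525: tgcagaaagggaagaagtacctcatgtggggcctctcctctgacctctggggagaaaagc
Cfb A_51_P413866: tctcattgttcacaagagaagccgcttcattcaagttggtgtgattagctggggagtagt
Cfp A_51_P408363: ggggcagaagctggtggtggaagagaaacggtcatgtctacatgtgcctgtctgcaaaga
C7 A_55_P2164714: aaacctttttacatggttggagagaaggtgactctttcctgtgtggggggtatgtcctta
C8a A_55_P2051476: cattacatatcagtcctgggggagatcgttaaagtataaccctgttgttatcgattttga
C8g A_55_P2135725: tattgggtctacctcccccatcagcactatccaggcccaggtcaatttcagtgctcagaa
The C3 probes lie on the minus strand at chr17:57343416-57343475 and chr17:57343678-57343737. The Cfb probe, also on the minus strand, covers chr17:34993502-34993858. That interval is 357 bases long for a 60-base probe, so the probe crosses an intron and reads spliced RNA. The Cfp probe is at chrX:20502742-20502801 on the minus strand. C6, C7 and C9 lie on chromosome 15, where the C7 probes are at chr15:4952733-4952792 and chr15:4981891-4981950 on the minus strand. C8a and C8b are neighbours on chromosome 4 in the RefSeq gene table, and the C8a probe shown is at chr4:104499275-104499334 on the minus strand. Hc and C8g are on chromosome 2, with the C8g probe shown at chr2:25355615-25355674 on the minus strand.

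Levels below are log2 of the processed signal divided by the 75th percentile of its array, and differences are MN minus control on that scale. They compare arrays for 1 probe at a time, since the brightness of different probes is not comparable. The sums over cell type markers below are the exception, as they add the signals of different probes within an array. Over all 25293 genes, limma with Benjamini-Hochberg adjustment called 5 at an adjusted p under 0.05 (0.0198%), and 0 of the 8 complement genes in the fit were among them. At an unadjusted p under 0.05 the counts were 0 of 8, beside 7.04% of all genes. In whole-kidney RNA a lower level can reflect fewer cells that make a transcript or less transcript per cell, and these cannot be told apart.

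C3 is the protein on which all complement pathways converge. Its brighter probe (A_51_P110301) had log2 levels of 5.94 and 5.71 on MN arrays 1 and 2, against 6.25 and 5.99 on control arrays 1 and 2. Both MN arrays were below both control arrays. The difference was -0.30 ± 0.18 (SE; 95% interval -0.79 to 0.20; limma adjusted p = 0.941), which is 0.815 times the control level. The second probe had 4.63 and 4.81 on the MN arrays, against 4.93 and 5.01 on the control arrays, and a difference of -0.25. Again the groups did not overlap. Within slides 1 and 2 the first probe differed by -0.31 and -0.28 and the second by -0.30 and -0.20. Groups did not overlap for 3 of the 8 complement genes in the fit (C3, C8a and C8g, all lower in MN), beside 33.1% of all genes in either direction and 19.8% with MN lower.

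The brighter C3 probe was printed 10 times on each array, which gives the error between spots of an array. Error of labelling, hybridization or slide is not part of it. The SD over these spots was 0.03 and 0.10 on MN arrays 1 and 2, against 0.03 and 0.08 on control arrays 1 and 2. The replicate arrays of a group were farther apart than that. MN array 2 was 0.22 below MN array 1, and control array 2 was 0.26 below control array 1. The gap between groups was thus larger than the spot error and close to the gap between replicates. The replicates of both groups differed in the same direction, slide 2 being lower, and with the slide as a block C3 had an unadjusted p of 0.0493 in limma and an adjusted p of 0.324. It was the 1 gene of the 8 under 0.05 unadjusted in that fit, beside 15.3% of all genes. The second probe was brighter on slide 2 in both groups, so the slide gap had opposite signs for the 2 probes while the difference between groups did not.

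**Figure D1:**
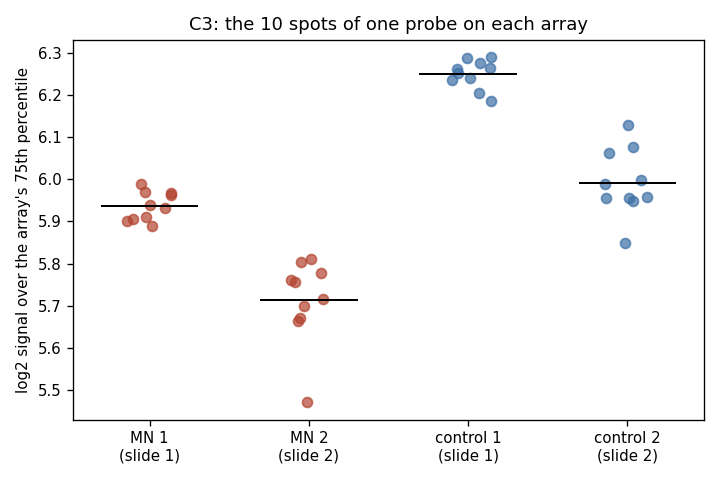
Log2 signal over the array's 75th percentile for each of the 10 spots of the C3 probe A_51_P110301, by array, with black lines at the array means (MN red, control blue). The spots of MN 1 (mean 5.94) and control 2 (mean 5.99) lie side by side, while MN 2 (5.71) is lowest and control 1 (6.25) highest.

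Cfb encodes factor B, the protease that forms the C3 convertase with C3b. Its probe had log2 levels of 5.51 and 5.42 on the MN arrays, against 5.55 and 5.21 on the control arrays. The MN values lay between the control values. The difference was 0.08 ± 0.18 (SE; 95% interval -0.42 to 0.58), with -0.05 on slide 1 and 0.20 on slide 2.

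Cfp encodes properdin, the positive regulator that stabilizes that convertase and is known to be made by neutrophils, monocytes and T cells. Its levels were -0.22 and -0.28 on the MN arrays, against -0.19 and -0.46 on the control arrays. Here too the MN values lay inside the range of the control arrays. The difference was 0.08 ± 0.16 (SE; 95% interval -0.38 to 0.53), with -0.02 and 0.18 on slides 1 and 2. For Cfb and Cfp the sign depended on 1 array: without control replicate 2 the differences were -0.091 and -0.058.

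Hc encodes C5, whose cleavage starts the terminal sequence. Its dim probe, at chr2:34838899-34838958 on the minus strand, was well above background on all 4 arrays. The levels were -3.63 and -3.87 on the MN arrays, against -3.95 and -3.51 on the control arrays. The groups overlapped, and the slides gave opposite signs, 0.31 on slide 1 and -0.36 on slide 2. The mean difference was -0.02 ± 0.22 (SE; 95% interval -0.64 to 0.59), and quantile normalization turned it to 0.070.

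C6 binds C5b as the next step of the assembly. Its probe, at chr15:4748363-4748422 on the plus strand, had levels of -3.09 and -3.46 on the MN arrays, against -3.29 and -3.06 on the control arrays. Here too the slides gave opposite signs, 0.20 on slide 1 and -0.40 on slide 2. A C7 probe that was not well above background on any array had the same signs (0.38 and -0.46). The mean difference for C6 was -0.10 ± 0.20 (SE; 95% interval -0.66 to 0.46).

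C7 anchors the growing complex to the membrane. The probe that entered the fit (A_55_P2164714) had levels of -3.21 and -4.48 on the MN arrays, against -3.25 and -3.05 on the control arrays. MN array 2 stood apart from the other 3 arrays, and the probe was not well above background there, with a signal of 54.0. The probe passed the filter through the control arrays alone. Its difference of -0.69 ± 0.47 (SE; 95% interval -2.01 to 0.63; limma adjusted p = 0.980) rested on that array: within slides 1 and 2 it was 0.05 and -1.43, and without MN replicate 2 it was -0.056. The second C7 probe was not well above background on any array and gives no second reading.

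C8 is built of an alpha, a beta and a gamma chain, of which alpha and beta come from related genes and gamma is a lipocalin. For C8g the brighter probe (A_55_P2151556) had levels of 2.81 and 2.70 on the MN arrays, against 3.18 and 2.90 on the control arrays. The second probe had -0.61 and -0.49 on the MN arrays, against -0.39 and -0.23 on the control arrays. Both probes placed both MN arrays below both control arrays, by -0.28 ± 0.17 (SE; 95% interval -0.75 to 0.18; limma adjusted p = 0.936) and by -0.24. The within-slide differences were -0.37 and -0.20 for the brighter probe and -0.22 and -0.26 for the other.

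The C8a probes gave differences of opposite sign. The brighter one (A_51_P204247, at chr4:104488479-104488538 on the minus strand) had levels of 1.60 and 1.61 on the MN arrays, against 1.78 and 1.75 on the control arrays. Its replicates lay within 0.03 of each other and the groups did not overlap, with a difference of -0.16 ± 0.13 (SE; 95% interval -0.52 to 0.21). The other C8a probe had -1.72 and -2.09 on the MN arrays, against -1.82 and -2.21 on the control arrays. Those groups overlapped, slide 2 was lower in both, and the difference was 0.11, with 0.10 and 0.12 on the slides. The direction for C8a therefore depended on the probe. For the dimmer probe it also depended on the background correction, since an alternative one (normexp) gave -0.010. The gap between the 2 probes of a gene was 0.27 for C8a, against 0.05 for C3 and 0.05 for C8g.

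C8b and C9 stayed at or near background. The C8b probe (chr4:104477094-104477153, plus strand) was well above background on control array 2 alone, with a signal of 35.9. On MN array 2 it had 38.0 and was not well above background, and on MN array 1 and control array 1 it had 25.2 and 19.0. These are signals before scaling between arrays, and the detection limit of control array 2 was the lowest of the 4. The probe of C9, whose protein forms the ring of the pore, was not well above background on any array (chr15:6433127-6433186, plus strand). Its signals were 5.50 and 10.2 on the MN arrays, against 4.70 and 6.17 on the control arrays. No difference is given for either gene.

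**Figure D2:**
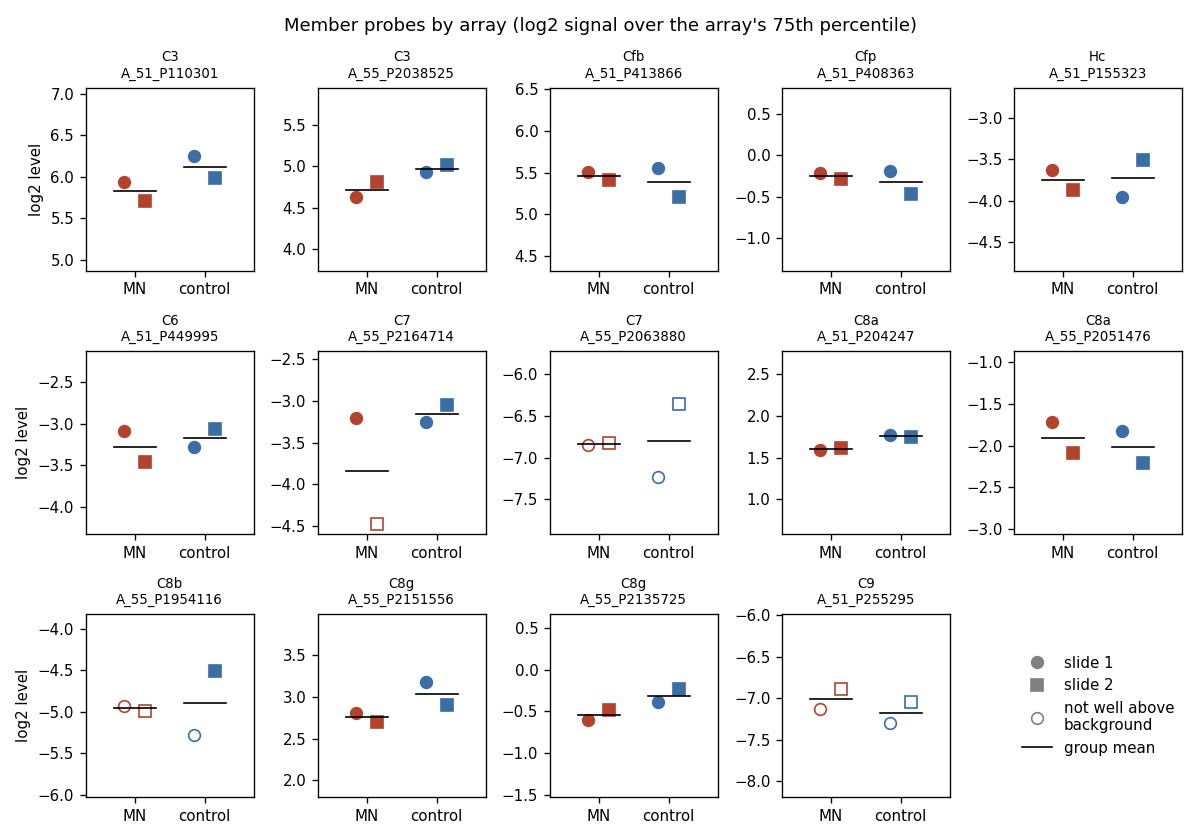
Log2 signal over the array's 75th percentile for the 14 probes, 1 panel each, with MN (red) left of control (blue), circles for slide 1, squares for slide 2, open symbols for spots not well above background and lines at group means. Every panel spans the same log2 range around its own centre. MN lies below control without overlap in both C3 and both C8g panels and in 1 of the 2 C8a panels, and a single low MN square sets the C7 difference.

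Across the 8 genes in the fit, 2 differences were positive and 6 negative. They ran from -0.69 (C7) to 0.08 (Cfb), with a median of -0.13, beside a median of -0.05 over all 25293 genes. Of all genes 38.6% had a positive and 61.4% a negative difference. Within slides the medians were -0.03 (slide 1) and -0.24 (slide 2). Lower values in MN on both slides were found for 3 of the 8 genes (C3, C8a and C8g), beside 40.1% of all genes, and higher ones for 0 of 8, beside 23.2%. By role, the alternative pathway genes C3, Cfb and Cfp ran from -0.30 to 0.08. Of the 5 terminal genes in the fit, C7 entered through the control arrays and was -0.056 without MN replicate 2, and the other 4 ran from -0.28 to -0.02. Their signs were not all stable: Hc turned to 0.070 with quantile normalization, C8a was 0.11 by its other probe, and Hc and C6 changed sign with 1 array left out. The SE of the 8 genes had a median of 0.18, so differences of the observed size were not detectable with these arrays.

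**Figure D3:**
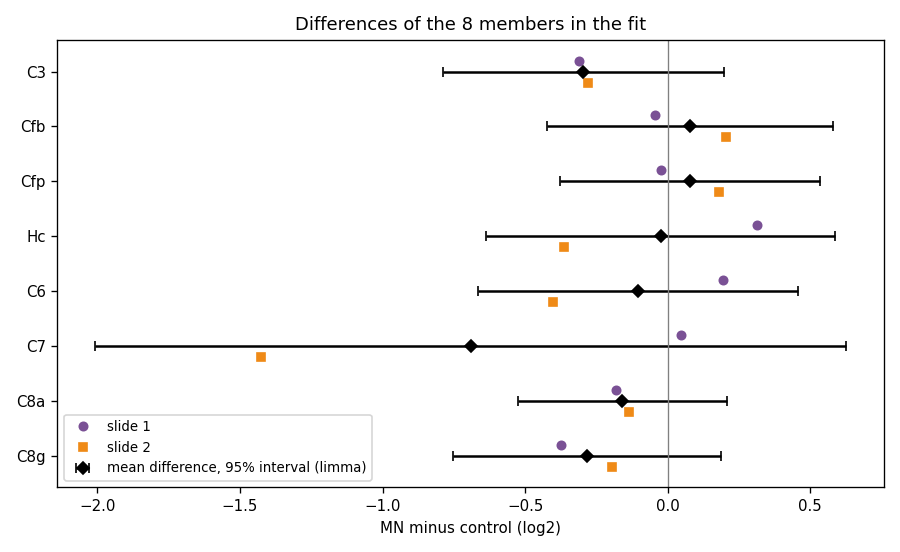
MN minus control (log2) for the 8 genes in the fit, as the mean difference with its 95% interval from limma (black), the slide 1 difference (purple circles) and the slide 2 difference (orange squares). All 8 intervals include 0. The slides agree in sign for C3, C8a and C8g, and C7 has the widest interval, -2.01 to 0.63.

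The other complement genes ran mostly the other way, though none passed either. Of 32 genes in lists of initiation, regulator and receptor genes, 27 had a positive difference and 5 a negative one, and limma called 0 (at an unadjusted p under 0.05, 3 were higher and 1 was lower, beside 3.54% and 3.5% of all genes). Initiation genes, which start the classical and lectin pathways, had a median difference of 0.25 with 12 of 14 positive. The highest was 0.86 for Masp2, a lectin pathway protease. The lowest was Fcna, a ficolin, which neither MN array measured well above background and which entered the fit through the control arrays, so its difference has no exact size; it is also the 1 gene counted as lower above. Regulators, which limit convertases or the attack complex, had a median of 0.22 with 10 of 12 positive. They ran from -0.40 for Cd46, which entered the fit through the control arrays and which 1 MN array did not measure well above background, to 1.01 for Cd55, which speeds the decay of the C3 convertase. Receptors for complement fragments had a median of 0.07 with 5 of 6 positive, from -0.25 for Vsig4 to 1.13 for Itgam, a chain of complement receptor 3. Of the receptors only Itgam was positive on both slides. Within slides 1 and 2 the receptor medians were 0.13 and -0.06, against 0.23 and 0.28 for initiation genes and 0.19 and 0.26 for regulators. Whether these lists differ from the alternative and terminal genes was not tested.

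**Figure D4:**
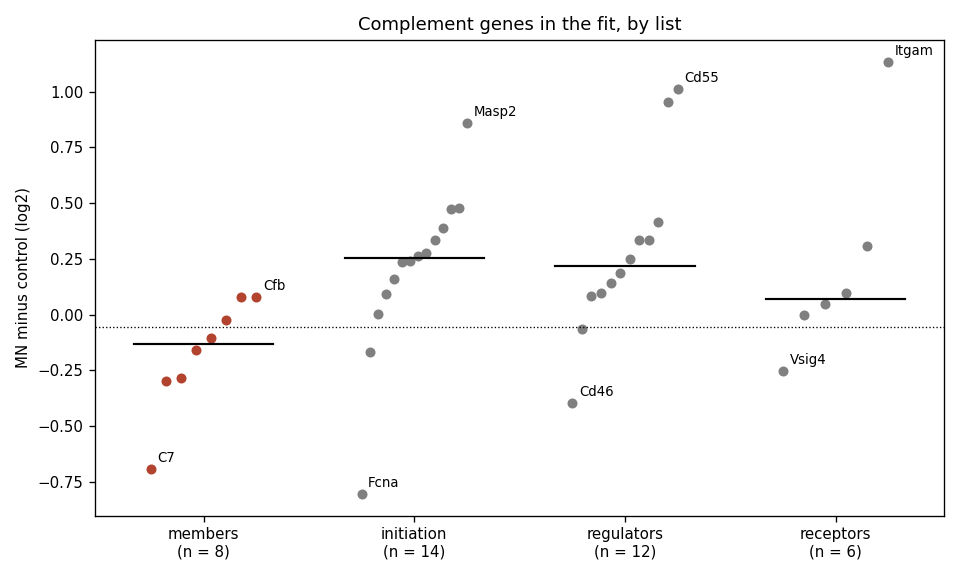
MN minus control (log2) for each complement gene in the fit, as 8 alternative and terminal genes (red) and lists of initiation, regulator and receptor genes (grey), with black lines at list medians and a dotted line at the median of all genes (-0.05). The list medians are -0.13, 0.25, 0.22 and 0.07, and the lowest and highest gene of each list are named. For Fcna, Cd46 and C7 at least 1 MN array was not well above background.

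Of the cells known to make these proteins, hepatocytes, macrophages and dendritic cells, and neutrophils had markers with mostly positive differences. T cell markers had negative ones, and none of these 4 lists had a member that passed. Kidney tubules are another known source. The tubule markers Slc34a1, Lrp2, Cubn, Umod, Slc12a1, Slc12a3 and Aqp2 had differences from -0.09 (Aqp2) to 0.07 (Lrp2). Hepatocyte markers summed to 40.6 and 45.1 times the array's 75th percentile on the MN arrays, against 26.6 and 28.1 on the control arrays, with 9 of 11 positive and a median difference of 0.42. The 2 negative ones were Cps1 (-0.46) and Tat (-0.20). Serpina1a and Ttr, with differences of 0.42 and 1.40, made up more of the hepatocyte sum than the other members together. Apoa1, another hepatocyte marker, was not well above background on any array. Macrophage and dendritic cell markers summed to 26.8 and 29.3 on the MN arrays, against 26.4 and 27.6 on the control arrays, with 7 of 9 positive, a median difference of 0.24 and Cd163 not well above background on any array. These sums weight each gene by the brightness of its probe, and Csf1r, with a difference of -0.22, made up more of the macrophage sum than the other members together. Neutrophil markers summed to 4.70 and 6.66 on the MN arrays, against 3.32 and 4.66 on the control arrays, with 5 of 6 positive and a median difference of 0.71. Ngp and Mpo, also on that list, did not enter the fit. T cell markers summed to 4.19 and 7.82 on the MN arrays, against 4.84 and 8.14 on the control arrays. Of these 6 of 6 were negative, beside 61.4% of all genes, with a median difference of -0.14. Cd3g and Cd8a were positive on slide 1 (0.10 and 0.14). On slide 2 Cd4 made up more of the T cell sum than the other members together. At an unadjusted p under 0.05, 4 hepatocyte, 2 macrophage and dendritic cell, 3 neutrophil and 0 T cell markers were higher in MN, beside 3.54% of all genes, and 0 of any of the 4 lists were lower. The hepatocyte count includes Ahsg, which entered the fit through the MN arrays and was well above background on only 1 control array. Of other markers, 6 of 8 adipocyte genes, 6 of 6 fibroblast genes and 4 of 4 erythroid genes had positive differences. The 1 of these that was called, the adipocyte gene Adipoq, was higher in MN, but neither control array measured it well above background and it entered the fit through the MN arrays. The same holds for Retn, another of the adipocyte genes with a positive difference. Lep, with a difference of -0.02, also entered through the MN arrays. The part of these cells in the complement values was not tested.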

How the data were processed

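Kidney RNA of 2 MN and 2 control samples was hybridized to 4 arrays. The deposited scanner files hold linear spot intensity; per the file headers, Feature Extraction 10.5.1.1 subtracted background, detrended each array and replaced signals near background by surrogates, with no scaling between arrays. The deposited value table holds log2 values of unstated making. It matched the scanner values centred on the control mean, with replicates 1 and 2 exchanged in both groups and column medians of -0.03 and -0.04 for MN and 0.03 and -0.03 for control. Scale, centring and direction were read from that match, and which replicate order is right is unknown. The table served as an alternative.

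Control and flagged spots were left out, spots of a probe averaged, and log2 signal centred on each array's 75th percentile. Probes well above background on both arrays of a group were kept, 1 per gene (highest mean over the 4 arrays), which gave 25293 genes. Names followed RefSeq accessions in a GRCm38.p6 table (28026 probes), its symbols (3418) or synonyms (295), otherwise the file (23942). Tests were two-sided in limma 3.58.1 (R 4.3.3; lmFit, eBayes, Benjamini-Hochberg, threshold 0.05), checked on simulated data; tables and figures used Python 3.11.15, pandas 2.3.3 and matplotlib 3.10.9. All 10 genes are named; of the other complement lists, the highest and lowest gene. Members, lists and alternatives were chosen with earlier results of these data known. Replicate number and slide coincide, and deviations of same-numbered arrays correlated at 0.63 across genes, so within-slide values are given. The alternatives were other background correction, scaling, filters, probe rules, variance models and a threshold of 0.1, the deposited table, the slide block and each array left out. One further kidney marker is not reported here.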

Additional observations from a re-analysis of the deposited data

How the results depend on the processing

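No complement gene of the group was called under any of the 16 alternatives, and of the 32 other complement genes 0 were called under any of them. Of 114 recomputed differences of the 8 genes, 106 kept their sign, but many of them were fixed in advance. The slide block, the variance models and the other filters returned the main difference exactly. So did the mean over probes for genes with a single probe in the fit. Median scaling and the deposited table only shifted all genes by the same constant. C3 and C8g stayed negative in all 15 of theirs, from -0.42 to -0.17 and from -0.43 to -0.14. The reversals were Hc at 0.070 with quantile normalization, C8a at 0.11 by its other probe, and, with 1 array left out, C6 (-0.29 to 0.082), Hc (-0.25 to 0.20), Cfb (-0.091 to 0.25) and Cfp (-0.058 to 0.21). The median over the 8 genes ran from -0.16 to -0.063 over 10 alternatives and from -0.22 to 0.013 with an array left out, the highest being without MN replicate 2. With the slide as a replicate block it was unchanged by construction, and 0 of all genes were called in place of 5; at an unadjusted p under 0.05 that fit had 3881. The count over all genes was 15 with normexp background correction, 17 with quantile normalization, 11 with median scaling, 16 with a mean-variance trend, 22 at a threshold of 0.1, 0 with no filter, 0 with probes above background on all arrays, and 0 with any array left out. In the fit of probes above background on all arrays C7 was not tested. Signal near background limits C7, C8b, C9, Hc and C6.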
